A study of Rattus norvegicus with 8 samples.

Results

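The let-7 passenger strands are the 3p arms of the let-7 precursors, and they were followed in small RNA sequencing counts from the striatum of rats that self-administered methamphetamine (METH) or saline. The members were chosen by name, as the 3p rows of 10 let-7 precursors, and all 10 were present among the 752 mature miRNAs of the table. They were proposed with earlier results of the same comparison in view, including a low level of let-7c-1-3p in the METH group. Differences between METH and saline in these rows are therefore given as a description, with no p-value for any row, and counts past a threshold are set beside those of the whole table without reading anything from them. The design comprised 4 saline rats and 4 METH rats, all wild-type male Sprague-Dawley rats carrying a jugular catheter, and each gave 1 library from the striatum, a forebrain region of reward and movement. The METH group received the drug through its own lever presses, and the saline group pressed for saline under the same procedure. Only rats that had learned to press for food were given a catheter, so both groups are selected animals. The paper also chose rats with stable lever pressing at the end, 4 per group, for plasma sampling. More METH than saline rats had entered self-administration, so this second choice was narrower for METH. Rat numbers 1 to 4 are names within a group and do not pair the rats.

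A let-7 precursor is a hairpin that Dicer cuts into a duplex of a 5p and a 3p strand. One strand, the guide, is loaded into an Argonaute protein and directs the repression of messenger RNAs, whereas the passenger strand is mostly discarded. For let-7 the guide is the 5p arm, a regulator of developmental timing and differentiation that is abundant in mature neurons and represses Lin28, Hmga2 and Ras genes. A 3p strand that is nevertheless loaded would read other targets, because its seed, the bases 2 to 8 that pair with a target, differs from that of the guide.

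The sequences show why some of these rows can be told apart and others cannot. RefSeq (build GRCr8) held the mature sequence of 9 of the 10 members, and let-7c-1-3p was not matched. They are written 5′ to 3′ with the seed in capitals.
let-7a-1-3p: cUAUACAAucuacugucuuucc
let-7c-2-3p: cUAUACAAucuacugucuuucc
let-7b-3p: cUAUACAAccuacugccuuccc
let-7f-1-3p: cUAUACAAucuauugccuucc
let-7f-2-3p: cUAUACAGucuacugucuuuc
let-7d-3p: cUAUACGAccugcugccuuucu
let-7e-3p: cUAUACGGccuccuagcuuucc
let-7a-2-3p: cUGUACAGccuccuagcuuucc
let-7i-3p: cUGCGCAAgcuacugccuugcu
The guide strand let-7a-5p is shown for contrast, with the seed that all 7 let-7 guide rows examined here have in common.
let-7a-5p: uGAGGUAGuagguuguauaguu

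The 9 passenger strands carried 6 different seeds, whereas the 7 guides carried 1. The seed UAUACAA belonged to let-7a-1-3p, let-7b-3p, let-7c-2-3p and let-7f-1-3p, and each of the other 5 seeds belonged to 1 member. The 36 pairs of passenger strands differed at 0 to 11 of the compared bases. The most different pair was let-7e-3p and let-7i-3p. All 9 passenger strands began with C, whereas 25.3% of the 293 rat 3p sequences in RefSeq did. Among the 7 guides, 6 began with U and 1, let-7d-5p, with A.

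The sequences of let-7a-1-3p and let-7c-2-3p were identical over 22 bases, although they come from precursors on different chromosomes. Their counts differed by at most 4 reads in any library, for example 2860 and 2859 reads in saline rat 1 and 2847 and 2846 reads in METH rat 4. The rows thus held the same reads, and they are 1 measurement, so that the 10 rows gave 9 separate profiles. How much of it came from either precursor cannot be told apart. The strand let-7f-2-3p differs from this sequence at 1 of 21 compared bases, and its own count is uncertain where reads with a mismatch were assigned.

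Several of the precursors lie together in the genome. On GRCr8 the genes of let-7a-1, let-7f-1 and let-7d are neighbours, as are those of let-7c-2 and let-7b. The gene of let-7e lies beside those of miR-99b and miR-125a. The let-7a-2 gene lies near those of miR-100 and miR-125b-1, let-7c-1 near miR-99a and miR-125b-2, and let-7f-2 beside miR-98, whereas let-7i has no miRNA gene within 100000 bases. RefSeq also lists miR-3596d at the same place as let-7f-1, and its row held 0 reads in each of the 8 libraries, a count that allows up to 3 reads. It lists miR-3596a beside let-7a-2, miR-3596b beside let-7a-1 and miR-3596c beside let-7e. Their rows held 2, 2 and 3 reads over all libraries.

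Total counts ranged from 12929302 in METH rat 1 to 27632443 in saline rat 3. Of the 752 miRNAs, 507 passed the filter on low counts, and all 10 members were among them. The least abundant member, let-7c-1-3p, reached the filter's cut-off of 0.468 CPM (counts scaled to library size) in 7 of 8 libraries, with METH rat 4 below it. METH rat 4 stood apart from the other libraries, at -21.5 on a first principal component that held 42.0% of the variance, while the other 7 lay between -2.83 and 7.29. Values without it are given beside the results that it moved most. All 5 neuron and forebrain marker miRNAs were present, with summed levels of 278805 to 483539 CPM over the saline rats and 314753 to 467665 CPM over the METH rats. Markers of other tissues were also present, none at 0 in any library, with summed levels of 403 to 644 CPM and 342 to 2817 CPM for 3 erythrocyte miRNAs, 2804 to 3580 CPM and 2912 to 7132 CPM for 5 choroid plexus miRNAs, and 19265 to 33993 CPM and 15876 to 67905 CPM for 6 pituitary and epithelial miRNAs, saline first. The last of these sums was mostly miR-7a-5p, at an average log2 CPM of 14.9, with miR-375-3p next at 8.07. It therefore mainly reports that 1 miRNA and not the list as a whole. The part of these markers in the results below was not tested. In tissue libraries, fewer cells of a type and less RNA per cell cannot be told apart.

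The passenger strands were scarce and spanned a wide range. With the identical rows counted once, they made up 0.0789 ± 0.0056% of counts under saline and 0.0819 ± 0.0214% under METH. The 7 guide rows took 13.4 ± 2.2% and 14.8 ± 4.76% of counts. Both METH means rested on METH rat 4, at 0.107% and 21.5%, and the other 3 METH rats averaged 0.0736% and 12.5%, below the saline means. Group values are means ± SD of the 4 rats. Levels are given as CPM on the scale set by trimmed mean of M-values (TMM) factors, and the 9 strands with a sequence were 21 or 22 bases long, so that no length correction was needed between them. A single strand, let-7d-3p, accounted for 64.7 ± 7.15% of all passenger counts under saline and 69.4 ± 8.15% under METH.

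The level of let-7d-3p over all rats was 564 CPM, 5.01-fold that of let-7a-1-3p at 113 CPM, and it was the higher of the pair in 8 of 8 rats without overlap of their ranges. Next came let-7e-3p at 68.8 CPM and let-7i-3p at 54.0 CPM, whose ranges overlapped, with let-7e-3p the higher in 6 of 8 rats. The order of their means differed between the groups. Under saline let-7i-3p averaged 75.8 CPM and let-7e-3p 63.2 CPM, and under METH 32.1 and 74.4 CPM. The saline mean of let-7i-3p rested on saline rats 3 and 4, at 116 and 145 CPM, against 19.9 and 22.2 CPM in saline rats 1 and 2. The mean of let-7i-3p over all rats was 5.88-fold above that of let-7f-2-3p at 9.18 CPM, and let-7i-3p was the higher in 8 of 8 rats. The levels of let-7b-3p and let-7f-1-3p, 6.30 and 5.85 CPM, were not separated, with let-7b-3p the higher in 3 of 8 rats. Both lay above let-7a-2-3p at 1.87 CPM and let-7c-1-3p at 0.894 CPM. These differences between strands also include any bias of adapter ligation and amplification for a sequence, which was not tested.

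**Figure D1:**
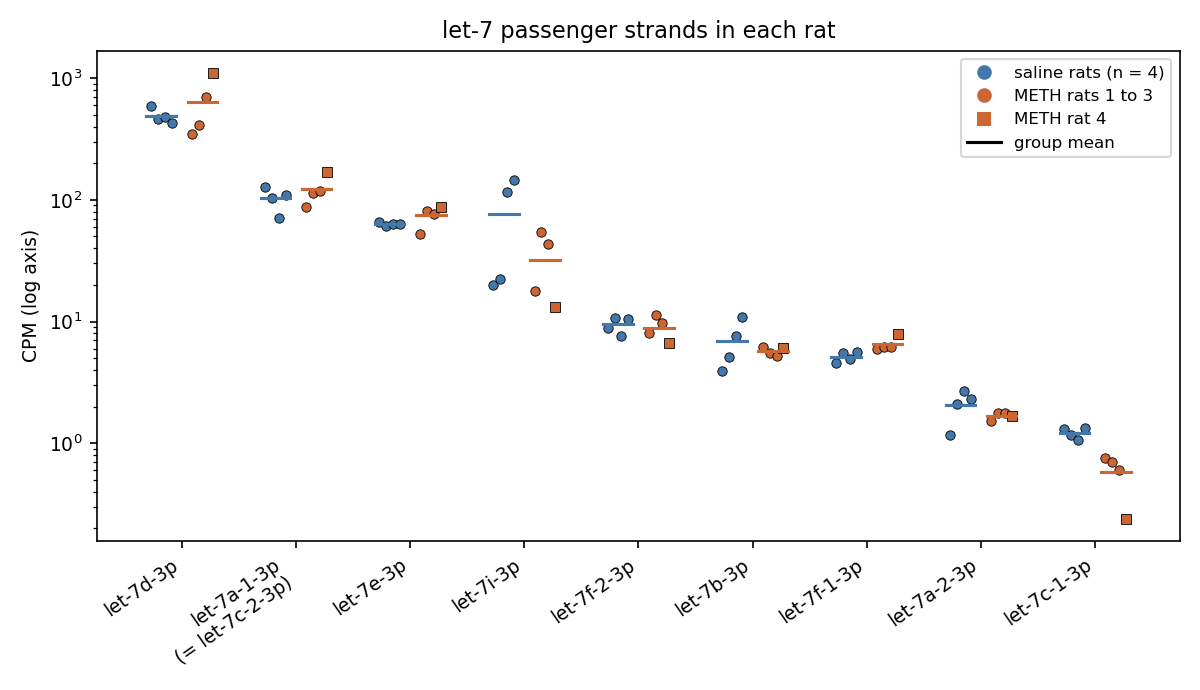
CPM (log axis) of each let-7 passenger strand in each rat, ordered by mean level, with saline rats in blue, METH rats in orange, METH rat 4 as a square and group means as lines. The strand let-7d-3p lies highest at 348 to 1102 CPM, let-7i-3p spreads from 13.2 to 145 CPM, and the METH rats lie below all saline rats for let-7c-1-3p and above them for let-7f-1-3p.

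METH rats were set against saline rats with the quasi-likelihood test of edgeR, fitted to all 507 miRNAs. Of the 10 members, 0 had an adjusted p under 0.05, as for 0 of the 507 miRNAs (0%). At an unadjusted p under 0.05 there was 1 member, against 28 miRNAs (5.52%) in the whole table, of which 14 (2.76%) were lower under METH. DESeq2, the edgeR exact test and the edgeR likelihood ratio test each called 0 members as well, and each had 1 member under the unadjusted limit, while they called 8, 6 and 7 miRNAs in the whole table. By sign, 4 of the 9 separate profiles were higher and 5 lower under METH, with a median log2 fold change of -0.08, against -0.02 over all miRNAs. Scaling by library totals moved these medians to -0.19 and -0.12, and scaling by the upper quartile moved them to 0.012 and 0.08, with 5 profiles higher and 4 lower. Without METH rat 4 the median of the profiles was -0.01. A difference of at least 1.5-fold was seen for 2 members, let-7c-1-3p and let-7i-3p, both lower, and for 85 of all miRNAs (16.8%). As the members were proposed from this contrast, nothing is read from these counts.

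The strand let-7c-1-3p (rno-let-7c-1-3p in the table, where rno stands for the rat) was measured at a low level that rested on few reads. Saline rats 1 to 4 had 29, 27, 29 and 34 reads, or 1.30, 1.16, 1.06 and 1.33 CPM. METH rats 1 to 4 had 11, 14, 15 and 4 reads, or 0.755, 0.705, 0.605 and 0.240 CPM. All 4 METH rats lay below all 4 saline rats, which was the case for 1.38% of all miRNAs. Saline rats averaged 1.21 ± 0.13 CPM and METH rats 0.576 ± 0.233 CPM. The log2 difference was -1.06 ± 0.35 (SE). Without METH rat 4 it was -0.81.

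Counting error was wide for this strand. The exact 95% Poisson interval of the 4 reads in METH rat 4 ran from 1.09 to 10.2 reads, and that of the 15 reads in METH rat 3 from 8.40 to 24.7 reads. In saline rat 2, the saline rat with the fewest reads, it ran from 17.8 to 39.3 reads. The intervals of METH rats 1 to 3 thus overlapped those of saline rats. Such intervals cover counting error only, since reads copied by PCR are not independent molecules and merging by molecular identifier is not described in the sources used here.

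The row above it in abundance, let-7a-2-3p, was also low in reads, with 26, 49, 73 and 59 reads in the saline rats and 22, 35, 44 and 28 reads in the METH rats. Its level was 2.06 ± 0.64 CPM against 1.68 ± 0.12 CPM, and its log2 fold change was -0.29 ± 0.31 (SE). Leaving out saline rat 1 gave -0.45, leaving out saline rat 3 gave -0.12, and scaling by the upper quartile gave -0.19. The lowest value, 1.17 CPM, was that of saline rat 1, so the groups overlapped.

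The strand let-7i-3p (rno-let-7i-3p) had the lowest fold change and by far the widest spread. Its level in saline rats 1 to 4 was 19.9, 22.2, 116 and 145 CPM, from 443, 517, 3184 and 3714 reads. In METH rats 1 to 4 it was 17.9, 54.1, 43.1 and 13.2 CPM, from 261, 1075, 1069 and 220 reads. Saline rats 3 and 4 stood high, saline rats 1 and 2 stood within the range of the METH rats, and the groups overlapped. The log2 fold change was -1.24 ± 0.71 (SE), and leaving out METH rat 2 gave -1.69, METH rat 4 -0.98 and saline rat 4 -0.75. The SD of its log2 CPM within groups was 1.28, larger than in 97.2% of the 507 miRNAs tested and against a median of 0.47. Its guide let-7i-5p had an SD of 0.45.

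The strands let-7f-1-3p and let-7d-3p, whose precursors lie together, and the row shared by let-7a-1-3p and let-7c-2-3p had higher means under METH. The same held for let-7e-3p, whose precursor lies elsewhere and which is given below. The strand let-7f-1-3p (rno-let-7f-1-3p) stood at 4.53, 5.49, 4.92 and 5.63 CPM in saline rats 1 to 4 and at 5.91, 6.19, 6.17 and 7.93 CPM in METH rats 1 to 4. All 4 METH rats were above all 4 saline rats, a pattern held by 1.78% of all miRNAs. This depended on the scaling, since only 3 METH rats were above all saline rats with upper quartile factors and only 1 with library totals. The log2 fold change was 0.35 ± 0.24 (SE), and its SD within groups, 0.17, was the smallest of the members.

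The level of let-7d-3p (rno-let-7d-3p) in saline rats 1 to 4 was 586, 457, 484 and 428 CPM. In METH rats 1 to 4 it was 348, 414, 695 and 1102 CPM. METH rats 1 and 2 were thus below every saline rat and METH rats 3 and 4 above every one. The log2 fold change of 0.39 ± 0.35 (SE) rested on METH rat 4, and it was -0.01 without that rat. The row shared by let-7a-1-3p and let-7c-2-3p stood at 128, 103, 70.3 and 110 CPM in the saline rats and at 86.9, 114, 118 and 171 CPM in the METH rats, with a log2 fold change of 0.25 ± 0.28 (SE). It also rested largely on METH rat 4, and was 0.05 without it.

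The remaining strands were let-7e-3p, let-7b-3p and let-7f-2-3p, and the groups overlapped for each. The level of let-7e-3p was 63.2 ± 1.62 CPM under saline and 74.4 ± 15.3 CPM under METH, where METH rats 2 to 4 were above and METH rat 1 below every saline rat. For let-7b-3p the saline rats ranged from 3.90 to 10.9 CPM and enclosed the METH rats at 5.20 to 6.18 CPM. For let-7f-2-3p the groups stood at 9.45 ± 1.48 CPM and 8.92 ± 2.01 CPM. Their log2 fold changes were 0.23 ± 0.23, -0.26 ± 0.34 and -0.08 ± 0.26 (SE), respectively, and that of let-7f-2-3p turned to 0.012 with upper quartile factors and to 0.045 without METH rat 4. That of let-7b-3p turned to 0.025 without saline rat 4. That of let-7e-3p was 0.37 without METH rat 1, 0.14 without METH rat 2, 0.15 without METH rat 4 and 0.088 when scaled by library totals.

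**Figure D2:**
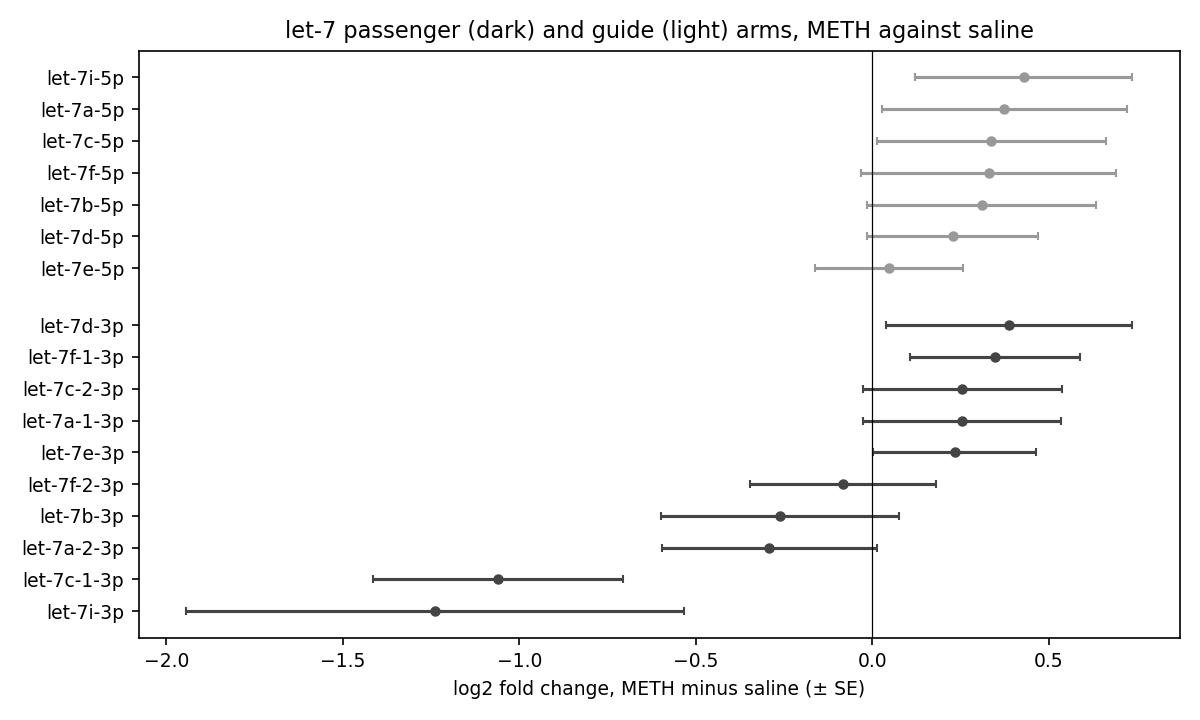
Log2 fold change, METH minus saline, with its SE for each let-7 passenger strand (dark) and guide strand (light). The passenger strands run from -1.24 for let-7i-3p to 0.39 for let-7d-3p, whereas the guides lie between 0.05 and 0.43.

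The guide arms, whose METH contrast the rule for the members did not use, were tested in the same fit. Of the 7 guide rows, 0 had an adjusted p under 0.05 in edgeR, with values from 0.818 to 0.978, and 0 had an unadjusted p under 0.05. DESeq2, the exact test and the likelihood ratio test called 0 guides too. All 7 had a positive log2 fold change, from 0.05 for let-7e-5p to 0.43 for let-7i-5p, with a median of 0.33. That of let-7e-5p was -0.10 with library totals. METH rat 4 had the highest CPM of all rats for 7 of 7 guides, and without it only 2 of the 7 were positive, with a range from -0.12 to 0.06.

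The passenger arms did not share this high level of METH rat 4 in a uniform way. Its let-7d-3p level was 2.41-fold the median of the other 7 rats, above the 1.69-fold of its own guide let-7d-5p. Among guides of other precursors, let-7a-5p stood at 2.38-fold and let-7c-5p at 2.37-fold. For let-7a-1-3p, let-7f-1-3p and let-7e-3p it was 1.56-fold, 1.41-fold and 1.39-fold. For let-7b-3p and let-7a-2-3p it was 1.08-fold and 0.947-fold, and for let-7f-2-3p, let-7i-3p and let-7c-1-3p it was 0.682-fold, 0.306-fold and 0.227-fold. METH rat 4 was thus the highest rat for 4 of the 9 separate profiles and the lowest for 3, where it was the highest for 30.4% and the lowest for 34.7% of all miRNAs.

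**Figure D3:**
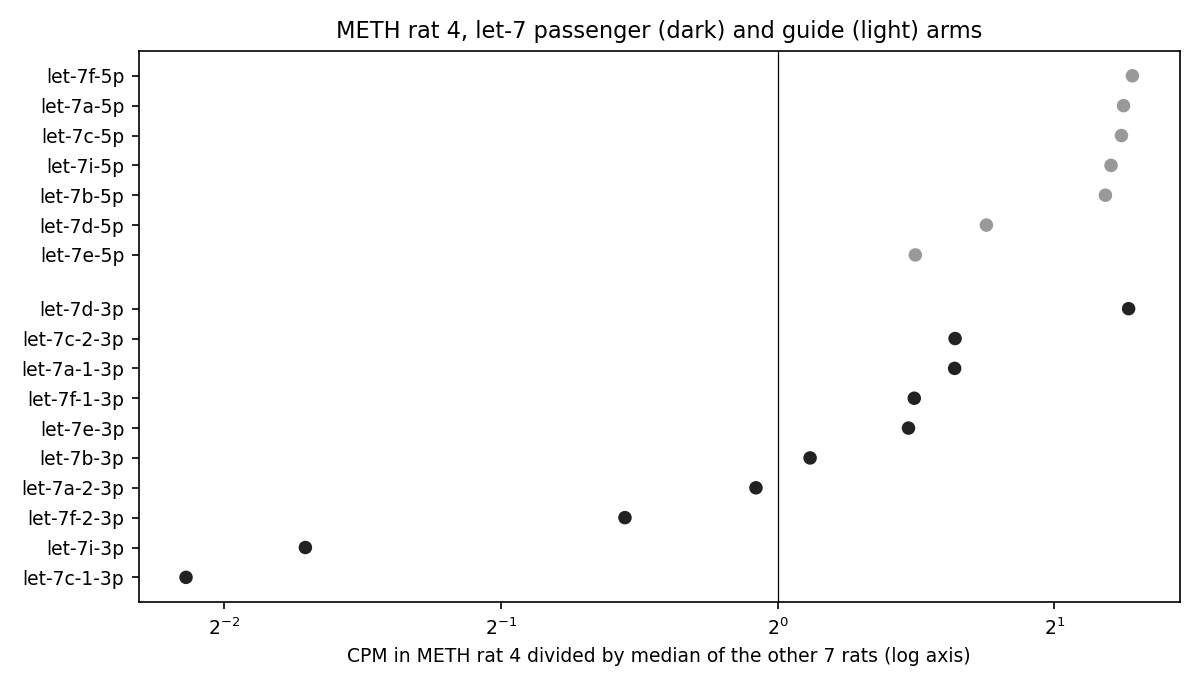
CPM in METH rat 4 divided by the median of the other 7 rats (log axis, with the line at 1) for let-7 passenger (dark) and guide (light) strands. All 7 guides lie above 1, whereas the passenger strands run from 0.227 for let-7c-1-3p to 2.41 for let-7d-3p.

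Each passenger arm was then set against its guide row as 3p reads per 1000 5p reads in the same rat, a measure that needs no scaling between libraries. The 5p arm was the higher for all 10 precursors, as for 58.9% of the 197 precursors with both arms tested, whose median was 348 3p reads per 1000 5p reads. The let-7 precursors lay between the 0.508th and the 34.5th percentile of these 197. The arms of let-7d were the least unequal, with 69.6 ± 2.95 reads per 1000 under saline and 75.8 ± 28.4 under METH. The most unequal were those of let-7c-1, with 0.0285 ± 0.0042 and 0.0135 ± 0.0078 reads per 1000. Precursors let-7a-1 and let-7a-2 share 1 guide row, as do let-7c-1 and let-7c-2, and let-7f-1 and let-7f-2, so their values are relative to a sum over loci. For let-7a-1 and let-7c-2 the 3p reads are shared too, and none of these values is the arm ratio of 1 locus.

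The difference in arm ratio was tested with limma over the 197 precursors. An adjusted p under 0.05 was found for 0 of the 10 let-7 precursors and 0 of the 197 (0%). At an unadjusted p under 0.05 there was 1 of 10 and 4 of 197 (2.03%). The 3p counts that were in view when the members were proposed enter this ratio again, so nothing is read from the count. The ratio of let-7c-1 was 0.0254, 0.0289, 0.0255 and 0.0343 in saline rats 1 to 4 and 0.0208, 0.0157, 0.0150 and 0.00252 in METH rats 1 to 4. All METH rats were below all saline rats, as for 2.03% of precursors. The log2 difference was -1.22 ± 0.54 (SE), and it was -0.63 without METH rat 4, whose ratio combined 4 passenger reads with the highest let-7c-5p count. Over all libraries left out in turn it ranged from -1.53 to -0.63. With a pseudocount of 10 or 0.5 reads in place of 2 it was -0.78 or -1.37.

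The arm ratio of let-7i repeated the spread of its passenger strand. It was 2.22, 2.85, 16.3 and 23.4 reads per 1000 in saline rats 1 to 4 and 2.41, 6.06, 6.21 and 0.770 in METH rats 1 to 4, a 30.4-fold range. The log2 difference of -1.27 ± 0.88 (SE) ranged from -1.83 without saline rat 1 to -0.64 without METH rat 4, and was -0.69 without saline rat 4. For let-7d, saline rats lay between 66.3 and 73.5 reads per 1000, whereas METH rats 1 and 2 were at 49.4 and 54.0 and METH rats 3 and 4 at 106 and 93.8. The METH rats thus fell on both sides of the saline range, and the log2 difference was 0.05 ± 0.35 (SE). It turned in 2 of the 8 fits that left out 1 library, to -0.08 without METH rat 4 and -0.14 without METH rat 3. Its highest value was 0.23, without METH rat 1.

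For let-7e the saline rats lay between 12.6 and 13.4 reads per 1000 and the METH rats between 11.4 and 19.1. The ratio of let-7a-1 was 3.31 ± 0.75 under saline and 3.36 ± 1.11 under METH, and that of let-7c-2 was 2.40 ± 0.49 and 2.42 ± 0.47. The log2 differences of let-7b, let-7a-2, let-7f-2 and let-7f-1 were -0.33 ± 0.46, -0.45 ± 0.46, -0.28 ± 0.51 and 0.16 ± 0.39 (SE). Each of these was smaller than its SE. Without METH rat 4 they were -0.04, -0.12, 0.18 and 0.39, so that the difference of let-7f-2 turned. Without saline rat 1 those of let-7b and let-7a-2 were -0.63 and -0.80, and without saline rat 4 that of let-7b was -0.07. Without METH rat 3 those of let-7f-2 and let-7f-1 were -0.60 and -0.09. METH rat 4 had the lowest ratio of all rats for 6 of the 10 let-7 precursors, against 40.6% of the 197.

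**Figure D4:**
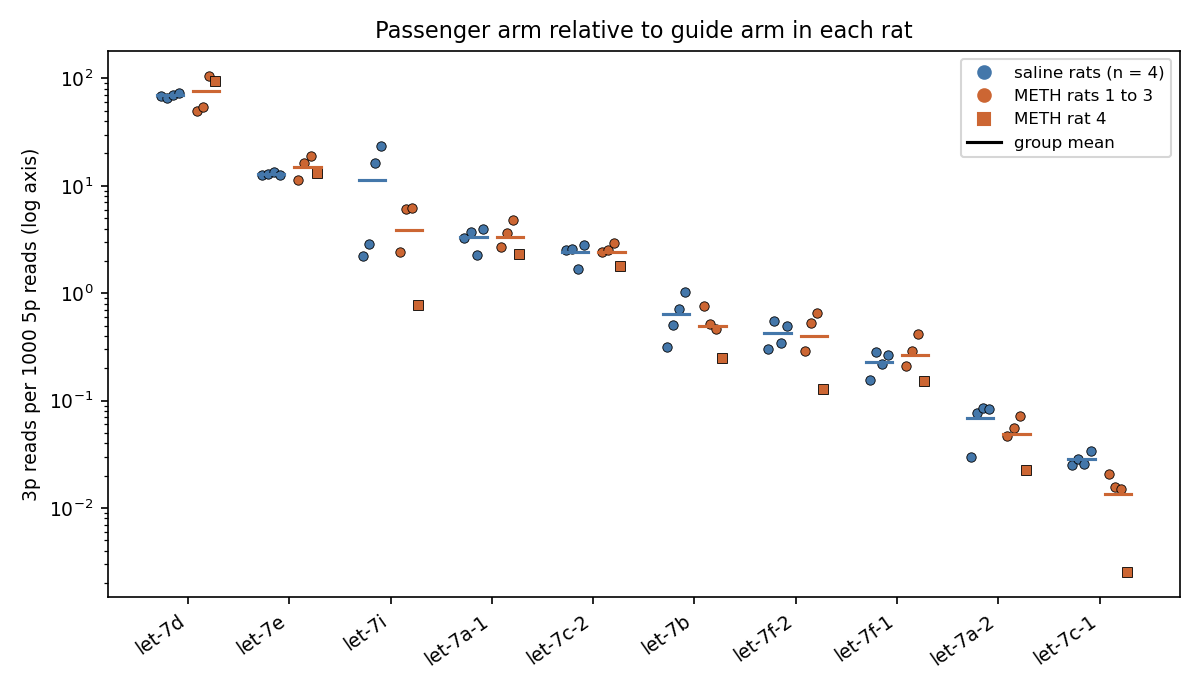
3p reads per 1000 5p reads (log axis) for each let-7 precursor and rat, ordered by mean, with saline rats in blue, METH rats in orange, METH rat 4 as a square and group means as lines. Values run from 106 for let-7d in METH rat 3 to 0.00252 for let-7c-1 in METH rat 4, which has the lowest ratio for 6 precursors.

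The miRNAs beside the let-7 genes were examined as a list of 13 rows. Of these, 0 had an adjusted p under 0.05 in edgeR and 0 an unadjusted p under 0.05, and DESeq2, the exact test and the likelihood ratio test called 0. The median log2 fold change was 0.10, from -0.65 for miR-98-3p, the passenger strand beside let-7f-2, to 0.48 for miR-99b-5p, the guide beside let-7e. Without METH rat 4 the median was 0.01 and miR-99b-5p stood at 0.22. The neighbours of let-7c-1 stood at 0.19 ± 0.18 (SE) for miR-99a-5p, -0.05 ± 0.35 (SE) for miR-99a-3p and -0.18 ± 0.28 (SE) for miR-125b-2-3p. For miR-125b-5p the value was -0.28 ± 0.20 (SE), and -0.39 to -0.18 with a library left out. No comparison with let-7c-1-3p is drawn, since its low level under METH was in view when the members were proposed. The sign of miR-99a-3p turned with upper quartile factors, and without METH rat 4 miR-99a-3p stood at 0.19 and miR-125b-2-3p at 0.02. The row of let-7g-3p, a let-7 passenger strand outside the members, stood at 4.67 ± 1.66 CPM under saline and 4.54 ± 2.14 CPM under METH, where METH rat 4 was at 1.38 CPM and the other 3 METH rats averaged 5.59 CPM, above the saline mean.

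The members did not vary as 1 group across the 8 rats. Over the 36 pairs of the 9 separate profiles, Pearson correlations of log2 CPM ran from -0.90 to 0.75 with a median of -0.04, and 17 were positive. These describe 8 libraries that include METH rat 4 and carry no test. The miRNAs whose log2 CPM followed the mean of the 10 member rows most closely were miR-25-5p, miR-326-5p and miR-3065-5p. Their correlations were 0.86, 0.83 and 0.80 over the 8 libraries. The identical let-7a-1-3p and let-7c-2-3p both entered this mean, as did let-7i-3p, the member with the widest spread.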

How the data were processed

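Small RNA of 4 saline and 4 METH rats was measured, 1 library per rat, and groups follow the treatment in the sample labels. The authors gel-purified small RNA, built libraries with unique molecular identifiers (UMIs), and, per the labels, trimmed with Cutadapt 1.18, aligned to rn6 with STAR 2.7.0e and counted with featureCounts of Subread 1.6.4. The deposited values are raw counts per mature miRNA. Merging by UMI, the annotation release and the rule for reads with several alignments are not given in the sources used here. Shared reads entered the rows of both let-7a-1-3p and let-7c-2-3p. Counts of let-7a-5p, which has 2 loci, were odd in 5 of 8 libraries.

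Counts were filtered with filterByExpr (minimum count 10), scaled by TMM and tested with edgeR 4.0.16 (quasi-likelihood, group only) in R 4.3.3, with Benjamini-Hochberg adjustment over 507 miRNAs and a threshold of 0.05. The SE is the absolute log2 fold change over the square root of F. Log2 CPM used a prior count of 2. Arm ratios, log2((3p + 2)/(5p + 2)), were tested with limma 3.58.1 over 197 precursors paired by name. DESeq2 1.42.0 was an alternative. In simulated data, edgeR recovered 186 of 195 miRNAs changed 4-fold, with 7 false calls, among 499 tested. For simulated arm ratios, limma recovered 18 of 29, with 2 false calls, among 195. In the rat libraries edgeR called 0 of 507 miRNAs, with log2 fold changes of up to 4.55 and a lowest adjusted p of 0.117. The share that would be recovered in the rat libraries was not tested. Total counts of 12929302 to 27632443 per library set the precision. The p-values measure the spread between the 4 rats of each group. Members and lists were chosen with earlier results of these data known. Named were all members, their guides, the neighbouring miRNAs and the 3 miRNAs closest to the mean member profile. Outside this rule, and chosen after values were seen, are let-7g-3p, the miR-3596 rows, the largest marker rows and the 3 miRNAs closest to let-7i-3p and to let-7c-1-3p. Sequences and gene order are from RefSeq (GRCr8), and coordinates on rn6 were not used.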

Additional observations from a re-analysis of the deposited data

Results flagged for a closer look

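Rats far from the other 3 of their group were looked for in 54 groups of 4, and 3 were found, where chance gives about 2.7. The log2 arm ratio of let-7a-2 was -14.9 in saline rat 1, against -13.6 to -13.5 in the other saline rats. Its let-7a-2-3p count there was 26 reads. The summed share of passenger counts was 0.0872% in saline rat 1, against 0.0752% to 0.0770% in the other saline rats. The log2 CPM of let-7f-1-3p was 3.00 in METH rat 4, against 2.58 to 2.65 in the other METH rats. That rat stood apart in many miRNAs, and its part in this value was not tested.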

How the results depend on the processing

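The number of members, guides, neighbouring miRNAs and arm ratios with an adjusted p under 0.05 was 0 in every setting tried for each, including the 8 fits that each left out 1 library. Of the log2 fold changes of members, 109 of 110 values in other settings and 76 of 80 with a library left out kept their sign. For guides these were 75 of 77 and 51 of 56, and for neighbours 138 of 143 and 91 of 104. The cause was not tested for any reversal.

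By setting, reversals were let-7f-2-3p (0.012), miR-99a-3p (0.063) and miR-125a-3p (0.080) with upper quartile factors, miR-125a-3p with DESeq2 size factors in edgeR (0.033) and in DESeq2 (0.035), let-7e-5p (-0.098) and miR-125a-5p (-0.0027) with library totals, and let-7e-5p (-0.0030) with even-only rows halved. With 1 library left out, fold changes that turned ranged from -0.26 to 0.045 for let-7f-2-3p, -0.41 to 0.025 for let-7b-3p and -0.012 to 0.59 for let-7d-3p. Guides ranged from -0.082 to 0.55 for let-7a-5p, -0.12 to 0.49 for let-7b-5p, -0.078 to 0.49 for let-7c-5p, -0.11 to 0.12 for let-7e-5p and -0.11 to 0.52 for let-7f-5p, each lowest without METH rat 4. Neighbours ranged from -0.17 to 0.050 for miR-99b-3p, -0.18 to 0.15 for miR-125a-3p, -0.22 to 0.19 for miR-99a-3p, -0.082 to 0.36 for miR-125b-1-3p, -0.31 to 0.020 for miR-125b-2-3p, -0.046 to 0.43 for miR-100-3p and -0.044 to 0.41 for miR-98-5p. Arm ratio differences ranged from -0.20 to 0.15 for let-7a-1, -0.14 to 0.15 for let-7c-2, -0.089 to 0.39 for let-7f-1, -0.60 to 0.18 for let-7f-2 and -0.14 to 0.23 for let-7d.

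The log2 fold change of let-7c-1-3p ranged from -1.21 to -0.81 with a library left out and from -1.14 to -0.97 in other settings. Halving guide rows with 2 loci, chosen after seeing the data, raised the mean arm ratio of let-7a-1 from 3.34 to 6.67 reads per 1000 and that of let-7c-1 from 0.0210 to 0.0420. The replicate block gave 0 called members, 0 guides, 0 neighbours and 0 arm ratios. Rats of the same number share only that number, and their deviations from the group means had correlations of -0.36 to -0.15. Depth limits let-7c-1-3p most, at 4 to 34 reads per library. Counting the identical rows once in the tally by sign, and the group means without METH rat 4, were also chosen after seeing the data.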

Other observations

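The spread of let-7i-3p was followed further after its values had been seen. The miRNAs with the most similar log2 CPM over the 8 libraries were miR-879-5p, miR-124-3p and miR-539-3p, with Pearson correlations of 0.91, 0.87 and 0.85, given as a description. The neuronal miR-124-3p stood at 156314, 127824, 330272 and 340285 CPM in saline rats 1 to 4 and at 181624, 249719, 342449 and 97752 CPM in METH rats 1 to 4. Saline rats 3 and 4 were thus high for both miR-124-3p and let-7i-3p, and METH rat 4 was the lowest for both, whereas METH rat 3 was high for miR-124-3p only. For let-7c-1-3p the closest were miR-3552, miR-3572 and miR-135a-5p, with correlations of 0.96, 0.92 and 0.92.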
